A study of Mus musculus with 23 samples.

Results

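Expression of the genes of glucose uptake, glycolysis and the hypoxia response was measured by RNA sequencing in cells from mice, labelled ILC2s (group 2 innate lymphoid cells). The gene list was composed by function, from the glucose carriers and glycolytic enzymes and from known targets of the hypoxia-inducible factors (HIF), and each name was looked up in the deposited table. Of the 37 listed genes, 33 were in the table of 19945 genes, 17 of them glycolysis genes and 16 HIF genes, and all 33 passed the filter on low values. Gapdh, Pgk1, Pgam1 and Eno1 were not analysed here.

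The 23 libraries fell into 4 groups. Brain day 5 (6 libraries) and blood day 5 (6 libraries) held cells taken back 5 days after MCAO (middle cerebral artery occlusion, an ischemic stroke model). Blood day 1 (6 libraries) held cells taken back 1 day after it, and the baseline (5 libraries) held cells straight from culture, without transfer. All came from B6.Cg-Tg(CAG-GFP)Smoc male donors aged 8 to 10 weeks, transgenic and wild-type, that had been given IL-33 every 2 days for 7 days. CAG is a promoter active in most cell types, so the GFP label does not mark ILC2s. CD25+ cells of bone marrow and spleen without Ter119, Gr1, CD11b, CD45R/B220 or CD3ε were enriched by MACS, then grown for 14 days with IL-2 and IL-15 plus IL-7 and IL-33. Per the labels' protocols a FACS gate of CD45+Lin-ST2+KLRG1+CD127+ followed, and cells were given by vein 6 hours after MCAO. Whether the baseline passed that sort, how cells were sorted on recovery, what strain the recipients were and whether libraries came from separate animals are points the labels leave out. The p-values below therefore measure the spread between these libraries, which may be partly technical.

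Glycolysis splits glucose into pyruvate, which is oxidised in mitochondria or reduced to lactate and exported. The transcription factor HIF-1 switches on many of these enzymes together with genes for pH control, mitophagy and collagen hydroxylation. Its alpha subunit is made at all times, but in the presence of oxygen the prolyl hydroxylases of the Egln family mark it for destruction. Several HIF targets, among them Egln3 itself, are therefore often read as a record of HIF activity, and activated lymphocytes are known to raise glycolysis.

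Each of the 12 libraries of batch 1 held 11.6 M to 16.9 M reads and each of the 11 of batch 2 held 27.8 M to 58.1 M (M, 1000000 reads), and both batches held libraries of all 4 groups. The ILC2 identity list (8 of 10 genes in the table) summed to 0.00388% to 0.0062% of the normalised total in brain day 5, 0.056% to 0.136% in blood day 5, 0.014% to 0.0795% in blood day 1 and 0.125% to 0.27% in the baseline. Klrg1, a marker of the sort, ran from 1.87 to 23.4 in brain day 5, 4367 to 22020 in blood day 5 and 2182 to 10246 in blood day 1, against 15664 to 50175 in the baseline, and Il2ra (CD25) reached at most 15.5, 176 and 335 in these groups, against at least 13451 in the baseline. These 2 genes were the highest of the list in the baseline. Gata3, the transcription factor that defines ILC2s, ran from 0 to 22.2 in brain day 5, 1270 to 1895 in blood day 5 and 591 to 2357 in blood day 1, against 139 to 534 in the baseline. Rora, another ILC2 transcription factor that other cells also use, ran from 793 to 1235, 600 to 1772 and 46.4 to 1987 in these groups, against 14.9 to 153 in the baseline. Il1rl1, the gene of the sorting marker ST2, ran from 3.41 to 136 in brain day 5, 47.2 to 232 in blood day 5 and 0 to 303 in blood day 1, against 0 to 5.42 in the baseline. Il7r, the gene of CD127, ran from 35.8 to 142, 1160 to 3131 and 370 to 2456, against 0 to 75.8 in the baseline. Icos ran from 10.9 to 43.4 in brain day 5, against 895 to 1604 in the baseline, and Il5 was at most 13.8 in any library. Of 7 identity genes tested, Klrg1, Il2ra, Icos and Gata3 fell in brain day 5 and Rora, Il1rl1 and Il7r rose (limma). These were 57.1% and 42.9%, against 11.7% and 37.5% of all tested genes. In both blood groups Il7r, Il1rl1, Rora and Gata3 rose (57.1%, against 18.1% and 19.6% of all tested genes) and Il2ra fell. Klrg1 fell in blood day 1 too. Brain day 5 thus went against its cell type label for Klrg1, Il2ra, Icos and Gata3, and the baseline for Il1rl1 and Il7r. The low Il5 went against the label in all groups. T cell markers (6 genes) made up 0.000417% to 0.00129% of brain day 5, 0.0781% to 0.135% of blood day 5, 0.0798% to 0.198% of blood day 1 and 0.324% to 1.04% of the baseline. The same brain libraries held 6 choroid plexus markers at 1.35% to 7.83%, 6 oligodendrocyte markers at 0.869% to 1.43% and 6 microglial markers at 0.379% to 0.894%, against 7.79e-06% to 0.00162%, 0.0159% to 0.0443% and 0.00807% to 0.011% in the baseline. Blood day 5 and blood day 1 held 4 erythroid markers at 0.267% to 3.72% and 0.357% to 8.39%, and 7 platelet markers at 0.156% to 1.35% and 0.391% to 4.9%, against 0.00104% to 0.409% and 0.00028% to 0.0389% in the baseline. They also held 5 B cell markers at 0.18% to 0.43% and 0.0441% to 0.269%, and 4 NK cell markers at 0.148% to 0.309% and 0.0645% to 0.242%, against 0.000141% to 0.0105% and 0.0132% to 0.0277% in the baseline. In these bulk samples, fewer cells of a type and less RNA per cell cannot be told apart, and the part of other cell types in the differences below was not tested. Replicate 5 of the baseline, replicates 2 and 6 of blood day 1 and replicate 2 of brain day 5 stood apart from their groups. Their median correlations with the other libraries of their group were the lowest there, at 0.852, 0.773, 0.836 and 0.795. They were picked after the data were seen, and baseline replicate 4, at 0.912, was not among them though it was high for several genes. Some results that rest on them are also given without them, and others only with them.

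HIF binds the letters ACGTG or GCGTG. Promoter windows of 300 bases, from 250 before to 50 after the annotated start, were taken from RefSeq (GRCm38.p6, the assembly of mm10) and searched for both words on both strands, where a CACGTG counts once on each strand. Of the 33 genes, 29 matched a window, and Slc2a3, Bnip3l, Ero1l and Ndrg1 did not. At least 1 match was found for 27 of the 29 genes (93.1%), against 61.0% of the 13528 genes of the table with a window and 46.7% of all 27025 genes. For ACGTG alone, it was 21 of 29 (72.4%), against 26.5% and 21.8%. A gene counted if any of its windows matched, and genes with more windows had more chances. Counted by window, 34 of the 44 windows of the 29 genes matched (77.3%), against 55.9% of the 17039 windows of the table's genes. For ACGTG alone, these shares were 56.8% and 22.95%. The list was composed partly from known HIF targets, so it was not chosen independently of HIF binding. The genes' windows were also richer in G and C, with a median of 63.2% against 59.0% in the table's windows, and a match is a string of letters, not a binding site. Egln3, Bnip3, Ankrd37 and Hilpda fell furthest among the genes with a window whose falls held in every alternative analysis. Pfkfb4 rose in all transferred groups, and P4ha2 rose in brain libraries. The windows of these 6 genes, chosen by their results in these data, are shown. Each is written 5′ to 3′ on the gene's own strand, and capitals mark every match, which reads CACGT or CACGC where it lies on the other strand.
Egln3, chr12:54203825-54204124 (minus strand): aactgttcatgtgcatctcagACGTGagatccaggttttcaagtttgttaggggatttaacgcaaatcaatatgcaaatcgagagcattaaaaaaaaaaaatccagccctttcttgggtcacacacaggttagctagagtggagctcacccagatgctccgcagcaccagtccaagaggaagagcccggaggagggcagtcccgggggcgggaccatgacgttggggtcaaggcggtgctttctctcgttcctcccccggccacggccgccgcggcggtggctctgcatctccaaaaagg
Bnip3, chr7:138909457-138909756 (minus strand): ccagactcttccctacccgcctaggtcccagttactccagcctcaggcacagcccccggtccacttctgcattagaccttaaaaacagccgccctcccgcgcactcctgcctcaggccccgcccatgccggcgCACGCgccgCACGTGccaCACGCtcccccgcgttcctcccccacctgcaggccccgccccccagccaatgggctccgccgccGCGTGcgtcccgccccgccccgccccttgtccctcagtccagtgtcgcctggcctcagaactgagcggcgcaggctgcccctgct
Ankrd37, chr8:45999801-46000100 (minus strand): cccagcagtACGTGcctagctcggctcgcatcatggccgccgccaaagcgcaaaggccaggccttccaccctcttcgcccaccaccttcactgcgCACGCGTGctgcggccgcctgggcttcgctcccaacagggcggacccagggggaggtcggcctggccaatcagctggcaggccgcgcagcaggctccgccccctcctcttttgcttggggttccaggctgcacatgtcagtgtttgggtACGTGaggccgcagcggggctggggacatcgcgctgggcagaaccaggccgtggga
Hilpda, chr6:29272376-29272675 (plus strand): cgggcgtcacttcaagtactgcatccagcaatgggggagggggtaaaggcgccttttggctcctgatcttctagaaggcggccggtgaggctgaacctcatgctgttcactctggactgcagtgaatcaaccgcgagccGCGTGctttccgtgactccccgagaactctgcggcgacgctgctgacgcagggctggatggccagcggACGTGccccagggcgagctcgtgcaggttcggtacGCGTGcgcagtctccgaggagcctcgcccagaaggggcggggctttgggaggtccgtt
Pfkfb4, chr9:108991652-108991951 (plus strand): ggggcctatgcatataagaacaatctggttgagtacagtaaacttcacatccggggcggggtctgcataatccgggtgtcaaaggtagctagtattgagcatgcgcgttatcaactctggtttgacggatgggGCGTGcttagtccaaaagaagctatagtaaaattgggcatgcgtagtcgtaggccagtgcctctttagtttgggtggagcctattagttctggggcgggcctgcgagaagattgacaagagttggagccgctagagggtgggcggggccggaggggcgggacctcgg
P4ha2, chr11:54100674-54100973 (plus strand): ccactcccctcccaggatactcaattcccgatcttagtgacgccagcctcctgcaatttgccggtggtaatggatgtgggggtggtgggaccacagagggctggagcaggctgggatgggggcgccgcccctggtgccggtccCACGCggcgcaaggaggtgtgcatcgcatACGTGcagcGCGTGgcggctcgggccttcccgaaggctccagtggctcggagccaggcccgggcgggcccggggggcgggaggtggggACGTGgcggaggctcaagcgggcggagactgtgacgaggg
Matches numbered 1 in the Egln3 window, 5 in Bnip3, 4 in Ankrd37, 3 in Hilpda, 1 in Pfkfb4 and 4 in P4ha2. Hilpda had another window, chr6:29272238-29272537, which held 1 match and is not shown. Genes that fell and genes that rose both carried the letters, as nearly any choice would, since 27 of the 29 genes with a window did.

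In blood day 1 against the baseline, most of the glycolytic and HIF genes that passed the test fell. Egln3, Ero1l, Bnip3, Hilpda and Ankrd37 fell furthest among the genes held in every alternative analysis, while Pfkfb4, Bnip3l and Mxi1 rose. Of the 33 genes, 18 fell and 3 rose (limma on log2(normalised count + 1), adjusted p below 0.05), where 14.0% and 18.1% of all 15268 tested genes did. The libraries of both groups did not overlap for 13 genes that were lower and 2 that were higher, against 7.39% and 9.7% of all genes. The median log2 difference was -1.37 over the 33 genes and 0.04 over all tested genes. With library totals made equal the counts were 16 lower and 5 higher, and in edgeR on the recovered reads 15 lower and 5 higher.

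The 33 genes together made up 0.694% to 1.38% of the normalised total in blood day 1, against 1.37% to 3.38% in the baseline.

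The same direction was seen in blood day 5. Of the 33 genes, 13 fell and 2 rose against the baseline, where 11.4% and 19.6% of all tested genes did (limma). Groups did not overlap for 14 lower genes and 1 higher gene, against 9.54% and 15.2% of all genes. The median was -1.58 over the 33 genes and 0.14 over all. Equal library totals gave 12 lower and 5 higher. Both blood comparisons share the 5 baseline libraries, so their likeness is not independent evidence.

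Brain day 5 differed from the baseline in both directions. Slc2a3, Egln3, Ero1l and Ankrd37 led 13 genes that fell, and P4ha2, Pfkfb4, Adm, Ndrg1, Pfkfb3 and Hif1a rose, where 11.7% of all tested genes fell and 37.5% rose (limma). Groups did not overlap for 11 lower and 3 higher genes, against 7.27% and 28.4% of all genes. The median over the 33 genes was -0.23, and that of all genes was itself shifted to 0.67 under the authors' scaling, 0.62 with equal totals and 0.22 in edgeR. Relative to all genes, the median of the 33 was thus -0.90. In edgeR 14 genes fell and 3 rose.

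Against blood day 5, brain day 5 was higher for 14 of the 33 genes and lower for Slc2a3 and Ankrd37 (limma), where 33.6% of all tested genes were higher and 14.3% lower. Groups did not overlap for 9 higher genes and 1 lower gene, against 24.9% and 10.5% of all genes. The median was 0.78 over the 33 genes and 0.47 over all, a shift that was 0.08 with equal totals and 0.14 in edgeR. Both of these scalings gave 9 higher and 7 lower genes, so the number of rises depends on the scaling. Between blood day 5 and blood day 1 none of the 33 genes was called in limma or edgeR, where limma called 0.0982% of all tested genes higher and 0.00655% lower. No gene of the 33 had groups without overlap, against 0.603% higher and 0.517% lower of all genes. At an unadjusted p below 0.05 limma gave 4 genes higher on day 5 and 1 lower.

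**Figure D1:**
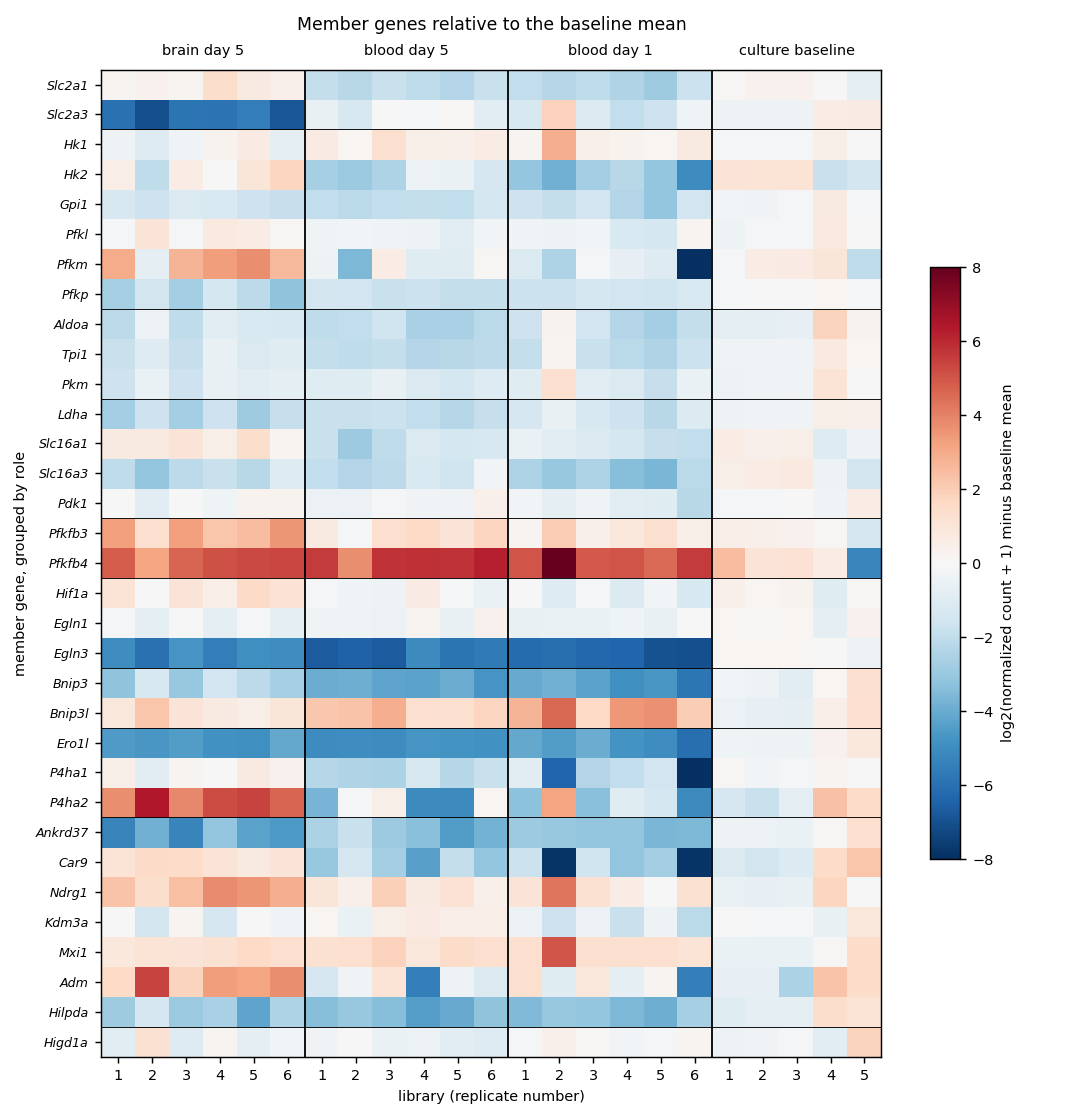
Heat map of the 33 genes (rows, grouped by role) in the 23 libraries (columns, replicate number within group); colour is log2(normalised count + 1) minus the mean of the 5 baseline libraries, blue lower and red higher, cut at 8. Egln3, Ero1l, Ankrd37 and Hilpda are blue in all transferred groups, Slc2a3 is deep blue only in brain day 5, and Pfkfb4 is red in every transferred library.

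Glucose enters cells through Slc2a1 (GLUT1) and Slc2a3 (GLUT3), the carrier with the higher affinity for glucose. Slc2a1 had normalised counts of 9521 to 21724 (median 10609.6) in brain day 5, 1611 to 2444 (median 2142) in blood day 5 and 1169.9 to 2520.1 (median 1829) in blood day 1, against 8712, 10645, 10676, 8224 and 4735 in the 5 baseline libraries. Every blood library lay below every baseline and every brain library. Slc2a1 fell in blood day 1 (log2 difference -2.21 ± 0.26, SE, limma adjusted p = 5.26e-07) and in blood day 5 (-2.00 ± 0.26, limma adjusted p = 2.03e-06). Brain day 5 exceeded blood day 5 by 2.54 ± 0.24 (limma adjusted p = 7.98e-09) and did not pass the test against the baseline (0.55 ± 0.26, limma adjusted p = 0.0846), with -0.02 within batch 1 and 1.24 within batch 2. Slc2a1 is the main glucose carrier of brain endothelium, and the 5 endothelial markers in the table made up 0.0288% to 0.288% of the brain libraries, 0.0105% to 0.0241% of blood day 5 and 0.000493% to 0.00157% of the baseline; their part in the result was not tested.

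Slc2a3 took the opposite course in the brain libraries. Its counts were 86.9 to 249 (median 190.2) in brain day 5, 4895 to 12551 (median 9078) in blood day 5 and 2957 to 41688 (median 5088) in blood day 1, against 8658, 8893, 8846, 17657 and 18393 in the baseline. All 6 brain libraries lay far below all others, while blood and baseline overlapped. The fall in brain day 5 was -6.20 ± 0.50 against the baseline (limma adjusted p = 4.87e-10) and -5.72 ± 0.48 against blood day 5 (limma adjusted p = 8.32e-10). Neither blood group passed the test against the baseline, and replicate 2 of blood day 1 was far above the other blood day 1 libraries, with 41688. Without the libraries that stood apart, blood day 1 against the baseline was -1.37 (adjusted p = 0.00397) in limma.

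Hexokinases trap glucose in the cell, and Hk2 is the inducible, HIF-responsive form. Hk2 had 119 to 1645 (median 713) in brain day 5, 62.8 to 352 (median 140.4) in blood day 5 and 14.2 to 103 (median 57) in blood day 1, against 989, 1065, 1059.7, 143 and 180.2 in the baseline. The baseline itself split by batch, with its 3 libraries of batch 1 several times above its 2 of batch 2. Hk2 fell in blood day 1 (-3.36 ± 0.74, limma adjusted p = 0.00114), with -4.30 within batch 1 and -1.84 within batch 2. In blood day 5 the difference of -1.76 did not pass (limma adjusted p = 0.0741) and its sign turned with the batch, -3.78 within batch 1 and 0.83 within batch 2. Brain day 5 exceeded blood day 5 by 2.04 ± 0.70 (limma adjusted p = 0.0194), a call lost with equal totals (1.63 (adjusted p = 0.0839)), within batch 2 alone (1.69 (adjusted p = 0.117)) and without brain replicate 6 or blood day 5 replicate 2 (adjusted p 0.0501 to 0.0567). Hk1, the form present in most cells, passed the test in none of the comparisons, with 1478 to 4668 (median 2264), 3372 to 7119 (median 4270.0) and 3249.9 to 22496 (median 3741) in brain day 5, blood day 5 and blood day 1, against 2638, 2632, 2666, 4193 and 2964 in the baseline.

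Gpi1 (glucose-6-phosphate isomerase) fell in every transferred group. Counts were 6375 to 10164 (median 8472) in brain day 5, 5181 to 8721 (median 5842) in blood day 5 and 2763 to 8103 (median 6751) in blood day 1, against 19542, 19372, 20530.5, 38708 and 21869 in the baseline, with no overlap. Log2 differences from the baseline were -2.00 ± 0.27 in blood day 1, -1.90 ± 0.27 in blood day 5 and -1.47 ± 0.27 in brain day 5 (limma adjusted p = 3.54e-06, 6.58e-06 and 6.08e-05). Phosphofructokinase, the committing step, is built from Pfkl (liver type), Pfkm (muscle type) and Pfkp (platelet type). Pfkp had 2717 to 9721 (median 5041) in brain day 5, 6657 to 9253 (median 7607) in blood day 5 and 7606 to 11105 (median 8666) in blood day 1, against 24372, 26079, 26456, 27997 and 22877 in the baseline. The baseline libraries were above all 18 others. Pfkp fell in blood day 1 (-1.53 ± 0.26), blood day 5 (-1.72 ± 0.26) and brain day 5 (-2.25 ± 0.26) (limma adjusted p = 8.22e-05, 1.86e-05 and 1.32e-07). Its exons overlap those of Pitrm1, and no source used here gives the strand setting of the counting.

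Pfkl passed only between brain day 5 (4179 to 9261 (median 5733)) and blood day 5 (2406 to 3864 (median 3563)), by 0.78 ± 0.28 (limma adjusted p = 0.0254), and not with equal totals (0.38 (adjusted p = 0.282)) or edgeR (0.46 (adjusted p = 0.23)). The call was also lost without brain replicate 2, 4 or 5 or blood day 5 replicate 5 (adjusted p 0.0524 to 0.0674). Pfkm had 167 to 3601 (median 2026) in brain day 5, 22.3 to 423 (median 175) in blood day 5 and 0 to 259 (median 128) in blood day 1, against 244, 416, 446, 540.1 and 65.7 in the baseline. Brain replicate 2, at 167, lay within the range of the blood and baseline libraries, and the other 5 brain libraries lay above all of them. Brain exceeded blood day 5 by 3.31 ± 1.09 (limma adjusted p = 0.0144), whereas against the baseline 2.46 ± 1.14 did not pass (limma adjusted p = 0.0795); without the libraries that stood apart it was 2.45 (adjusted p = 0.0019). Pfkm shares exon positions with Senp1.

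The triose steps are covered by Aldoa (aldolase A), Tpi1 (triose phosphate isomerase) and Pkm (pyruvate kinase), each of which has processed pseudogene copies, so that their counts are uncertain to that extent. Tpi1 had 6278 to 14690.1 (median 10350.4) in brain day 5, 4289 to 6040.0 (median 5317) in blood day 5 and 4108 to 25403 (median 6169) in blood day 1, against 17112, 18199, 18219.6, 38437 and 24524 in the baseline. Only replicate 2 of blood day 1, at 25403, reached the baseline range. Tpi1 fell in blood day 1 (-1.63 ± 0.36), blood day 5 (-2.08 ± 0.36) and brain day 5 (-1.23 ± 0.36) (limma adjusted p = 0.00111, 7.86e-05 and 0.00609). Brain day 5 was 0.85 above blood day 5 (limma adjusted p = 0.0428), a call lost with equal totals, in edgeR and without any 1 of the 12 libraries compared other than brain replicates 1 and 3 (adjusted p 0.0503 to 0.110).

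Aldoa fell in blood day 1 (-1.64 ± 0.48), blood day 5 (-2.16 ± 0.48) and brain day 5 (-1.32 ± 0.48) (limma adjusted p = 0.0114, 0.00122 and 0.0265). Its counts were 22487 to 68406 (median 40618) in brain day 5, 15914 to 31906 (median 22078) in blood day 5 and 14505 to 115994 (median 27989) in blood day 1, against 57414, 59179, 61616, 330843 and 117265 in the baseline. The high baseline replicate 4 carried part of this. Without it, limma gave -1.13 (adjusted p = 0.0504) in blood day 1 and -0.80 (adjusted p = 0.135) in brain day 5; the brain call was lost too without baseline replicate 5 or brain replicate 1 or 3. Pkm had 27673 to 60405 (median 49659) in brain day 5, 33121 to 59502 (median 44257) in blood day 5 and 24508 to 216646 (median 45536) in blood day 1, against 63258, 70899, 71739, 191592 and 88208 in the baseline. Pkm fell in brain day 5 (-1.02 ± 0.41, limma adjusted p = 0.0427), a call lost without baseline replicate 4 or 5 or brain replicate 1, 3 or 5 (adjusted p 0.0572 to 0.165), and the like difference in blood day 5 did not pass (-1.02 ± 0.41, limma adjusted p = 0.0639).

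Ldha makes the muscle-type lactate dehydrogenase subunit that favours lactate formation. It had 10033 to 22945 (median 15543) in brain day 5, 14695 to 22462 (median 20708) in blood day 5 and 15458 to 47453 (median 29235) in blood day 1, against 55798, 60601, 60934, 101004 and 97942 in the baseline. All transferred libraries lay below all baseline libraries. Ldha fell, with log2 differences of -1.37 ± 0.29 in blood day 1, -1.89 ± 0.29 in blood day 5 and -2.25 ± 0.29 in brain day 5 (limma adjusted p = 0.000832, 2.09e-05 and 6.84e-07). It too has processed pseudogenes.

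Lactate leaves cells through Slc16a3 (MCT4), a HIF target and exporter, and crosses membranes in either direction through Slc16a1 (MCT1). Slc16a3 had 477 to 2099.5 (median 1042) in brain day 5, 835 to 3697 (median 1261) in blood day 5 and 348 to 986 (median 649) in blood day 1, against 5862, 6616, 7461, 3306 and 1573 in the baseline. Only blood day 1 was clear of the baseline range. Slc16a3 fell, with log2 differences of -2.87 ± 0.44 in blood day 1, -1.58 ± 0.44 in blood day 5 and -2.06 ± 0.44 in brain day 5 (limma adjusted p = 2.46e-05, 0.0082 and 0.000421). The 2 later falls were larger in batch 1: blood day 5 gave -2.75 within batch 1 and -0.09 within batch 2, and brain day 5 gave -3.04 within batch 1 and -0.76 within batch 2. With equal totals the fall in blood day 5 was no longer called, at -1.22 (adjusted p = 0.065).

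Slc16a1 had 2125 to 4951 (median 2997) in brain day 5, 248 to 826 (median 622) in blood day 5 and 468 to 1260.3 (median 784) in blood day 1, against 2768, 2429, 2552, 905 and 1370.3 in the baseline. Brain day 5 was above every blood library. It exceeded blood day 5 by 2.50 ± 0.33 (limma adjusted p = 1.15e-06), a call held in every alternative. Blood day 1 and blood day 5 fell against the baseline, with log2 differences of -1.26 ± 0.35 and -1.72 ± 0.35 (limma adjusted p = 0.00806 and 0.000483). Pdk1, the kinase that keeps pyruvate out of mitochondria, fell in blood day 1 (-0.90 ± 0.31, limma adjusted p = 0.0287); without blood day 1 replicate 6 it was -0.64 (adjusted p = 0.0607), and without baseline replicate 5 -0.73 (adjusted p = 0.086). Equal totals gave -0.79 (adjusted p = 0.0948) and edgeR -0.76 (adjusted p = 0.0518).

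**Figure D2:**
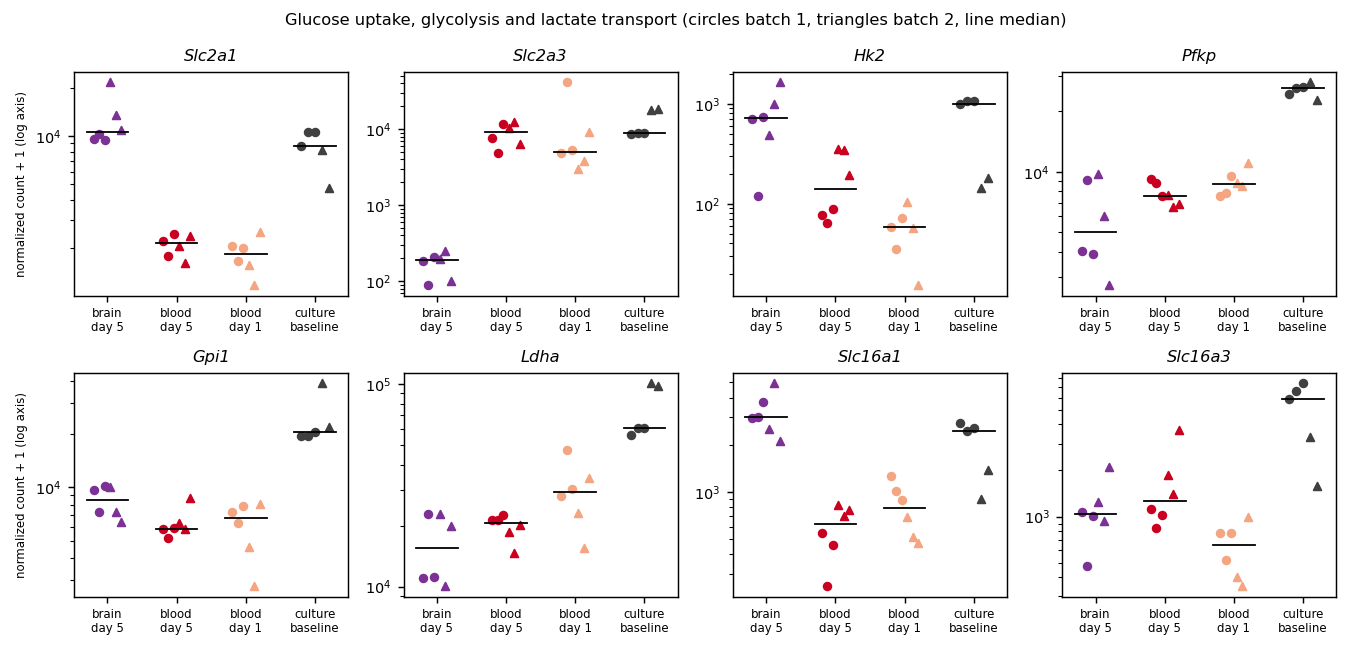
Normalised count + 1 (log axis) of 8 glucose uptake, glycolysis and lactate transport genes in each library of brain day 5, blood day 5, blood day 1 and the baseline; circles are batch 1, triangles batch 2 and lines the group medians. Slc2a1 and Slc16a1 are lowest in blood and high in brain, Slc2a3 is lowest in brain, and Gpi1, Pfkp and Ldha are highest in the baseline.

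Pfkfb3 and Pfkfb4 make fructose-2,6-bisphosphate, the activator of phosphofructokinase, and both are HIF targets. Against the baseline, Pfkfb4 was called higher in all transferred groups and Pfkfb3 in brain day 5 only. The other glycolysis genes of the list that were called against the baseline fell. Pfkfb4 had 332 to 1496 (median 1169.9) in brain day 5, 491 to 2792 (median 2062) in blood day 5 and 847 to 10789.7 (median 1209) in blood day 1, against 200.4, 74.9, 80.9, 54.2 and 0 in the baseline. Every transferred library was above every baseline library. Pfkfb4 rose by 5.60 ± 0.93 in blood day 1, 5.56 ± 0.93 in blood day 5 and 4.79 ± 0.93 in brain day 5 (limma adjusted p = 5.99e-05, 5.89e-05 and 0.00014). Baseline replicate 5, at 0, widened these; without it the differences were 4.21 (adjusted p = 2.12e-05), 4.17 (adjusted p = 2.2e-05) and 3.40 (adjusted p = 9.57e-05).

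Pfkfb3 rose in brain day 5. It had 680.0 to 3154 (median 2020.2) there, 244 to 869 (median 616) in blood day 5 and 311 to 1077 (median 441) in blood day 1, against 379, 351, 340.0, 283 and 106 in the baseline. Brain lay above the baseline in every library and overlapped both blood groups. The difference was 2.69 ± 0.45 from the baseline (limma adjusted p = 2.22e-05) and 1.65 ± 0.43 from blood day 5 (limma adjusted p = 0.00256).

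Hif1a encodes the oxygen-regulated subunit of HIF-1, whose amount is set mostly at the protein level. It had 1534 to 4513 (median 3213) in brain day 5, 1069.6 to 2359.5 (median 1290.3) in blood day 5 and 629.6 to 1492 (median 1034) in blood day 1, against 2033, 1739, 1817, 795 and 1627 in the baseline. Ranges overlapped in all comparisons. Hif1a rose in brain day 5 by 0.91 ± 0.32 against the baseline and 1.05 ± 0.30 against blood day 5 (limma adjusted p = 0.0213 and 0.00622), where the medians of all genes were shifted by 0.67 and 0.47. Equal totals gave 0.87 (adjusted p = 0.0863) and 0.64 (adjusted p = 0.185), and edgeR 0.53 (adjusted p = 0.189) and 0.63 (adjusted p = 0.0952). Without baseline replicate 4 the first was 0.65 (adjusted p = 0.0915) in limma and without brain replicate 5 0.77 (adjusted p = 0.0579). Egln1, the main HIF prolyl hydroxylase, passed in none of the comparisons, with log2 differences from -0.42 to 0.22.

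Egln3, a prolyl hydroxylase that is itself induced by HIF, had the largest fall of the 33 genes in both blood groups. Its counts were 152 to 353 (median 299) in brain day 5, 91 to 269 (median 133) in blood day 5 and 69.6 to 146 (median 115) in blood day 1, against 10671, 10413, 10524, 9268 and 6750.3 in the baseline. No transferred library came near the baseline range. Egln3 fell, with log2 differences of -6.49 ± 0.35 in blood day 1, -6.07 ± 0.35 in blood day 5 and -5.18 ± 0.35 in brain day 5 (limma adjusted p = 4.15e-12, 1.21e-11 and 1.6e-11). Brain day 5 was 0.89 above blood day 5 (limma adjusted p = 0.0285), a call lost with equal totals (0.49 (adjusted p = 0.31)), in edgeR (0.40 (adjusted p = 0.267)) and without replicate 1 or 3 of either group, brain replicate 5 or 6 or blood day 5 replicate 2.

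Ero1l, the oxidase that passes electrons from protein disulphide bonds to oxygen, behaved alike in the 3 transferred groups. It had 454 to 774 (median 562) in brain day 5, 406 to 503 (median 444) in blood day 5 and 204 to 861 (median 543) in blood day 1, against 10408, 10301, 10129.9, 16778 and 23836 in the baseline. The transferred groups lay on top of each other and far below the baseline. Ero1l fell, with log2 differences of -4.71 ± 0.31, -4.90 ± 0.31 and -4.57 ± 0.31 in blood day 1, blood day 5 and brain day 5 (limma adjusted p = 1.43e-10, 6.61e-11 and 2.63e-11). Between brain day 5 and blood day 5 the difference was 0.32 ± 0.30 (limma adjusted p = 0.402).

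Bnip3 and Bnip3l (NIX) are outer mitochondrial membrane receptors for mitophagy, both known as HIF targets, and they parted in blood. Bnip3 had 837 to 3275 (median 1545) in brain day 5, 297 to 536 (median 460.2) in blood day 5 and 141 to 548 (median 359) in blood day 1, against 6866, 6088, 4410.5, 8650.4 and 19401 in the baseline. The 4 groups fell into 3 levels without overlap, the baseline highest, brain between and both blood groups lowest. Bnip3 fell, with log2 differences of -4.60 ± 0.41, -4.18 ± 0.41 and -2.30 ± 0.41 in blood day 1, blood day 5 and brain day 5 (limma adjusted p = 1.12e-08, 4.31e-08 and 5.25e-05), and brain exceeded blood day 5 by 1.88 ± 0.39 (limma adjusted p = 0.000328).

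Bnip3l had 3174 to 10603 (median 4301) in brain day 5, 5511 to 16749 (median 8840.2) in blood day 5 and 6891 to 54979.7 (median 20236) in blood day 1, against 1616, 1436, 1339, 3343 and 5903 in the baseline. Blood day 1 lay wholly above the baseline, blood day 5 overlapped baseline replicate 5, and brain day 5 overlapped both baseline libraries of batch 2. Bnip3l rose by 3.01 ± 0.49 in blood day 1 and 1.95 ± 0.49 in blood day 5 (limma adjusted p = 4.75e-05 and 0.00352); for blood day 5 it was 3.08 within batch 1 and 0.48 within batch 2. Bnip3l is the receptor by which maturing red cells clear mitochondria. The 4 erythroid markers in the table were all called higher in both blood groups, where 18.1% and 19.6% of all tested genes were. Within blood day 1, replicate 2 had the highest Bnip3l with the lowest erythroid share (0.357%). Replicate 1 had the highest share (8.39%) with a Bnip3l count of 15007. Within blood day 5, replicate 5 was lowest for both (5511 and 0.267%). The part of red cells in the result was not tested. Higd1a, a small mitochondrial HIF target, passed in none of the comparisons.

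P4ha1 and P4ha2 are the catalytic subunits of collagen prolyl 4-hydroxylase. P4ha2 had 458 to 2887 (median 1074) in brain day 5, 0 to 47.4 (median 15.5) in blood day 5 and 0 to 307 (median 7.21) in blood day 1, against 12.6, 9.13, 19.8, 177 and 94.6 in the baseline. Brain lay above all other libraries, and 2 blood day 5 libraries had no read. P4ha2 rose in brain day 5 by 4.89 ± 1.33 against the baseline and 7.11 ± 1.26 against blood day 5 (limma adjusted p = 0.00364 and 5.33e-05); edgeR gave 3.82 (adjusted p = 0.0503) for the first. Markers of mural cells, which wrap small vessels, stood at 0.0346% to 0.145% in brain day 5, 0.00836% to 0.0116% in blood day 5 and 0.00173% to 0.00471% in the baseline. Of these, 5 of 6 were called higher in brain in both comparisons, where 37.5% and 33.6% of all tested genes were. Brain replicate 2 had the lowest mural share and the highest P4ha2. Its choroid plexus (7.83%) and ependyma (0.264%) shares were the highest of its group. Replicate 5 had the highest mural share, with a P4ha2 count of 1433. The part of any of these cell types in the result was not tested.

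P4ha1 had 1278 to 3906 (median 2888) in brain day 5, 403 to 961 (median 486) in blood day 5 and 0 to 1284 (median 534) in blood day 1, against 2526, 2069, 2141, 2715 and 2472 in the baseline. Every blood library was below every baseline library, and only blood day 1 replicate 1 reached the lowest brain library. The fall was called in blood day 1 (-4.04 ± 1.19, limma adjusted p = 0.0117), where replicate 6 had no read; without it the value was -2.62 (adjusted p = 0.00249), and edgeR on all libraries gave -2.10 (adjusted p = 0.0513). In blood day 5 the groups did not overlap, but -2.10 ± 1.19 did not pass (limma adjusted p = 0.199). Without the libraries that stood apart it was -2.15 (adjusted p = 4.06e-06).

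**Figure D3:**
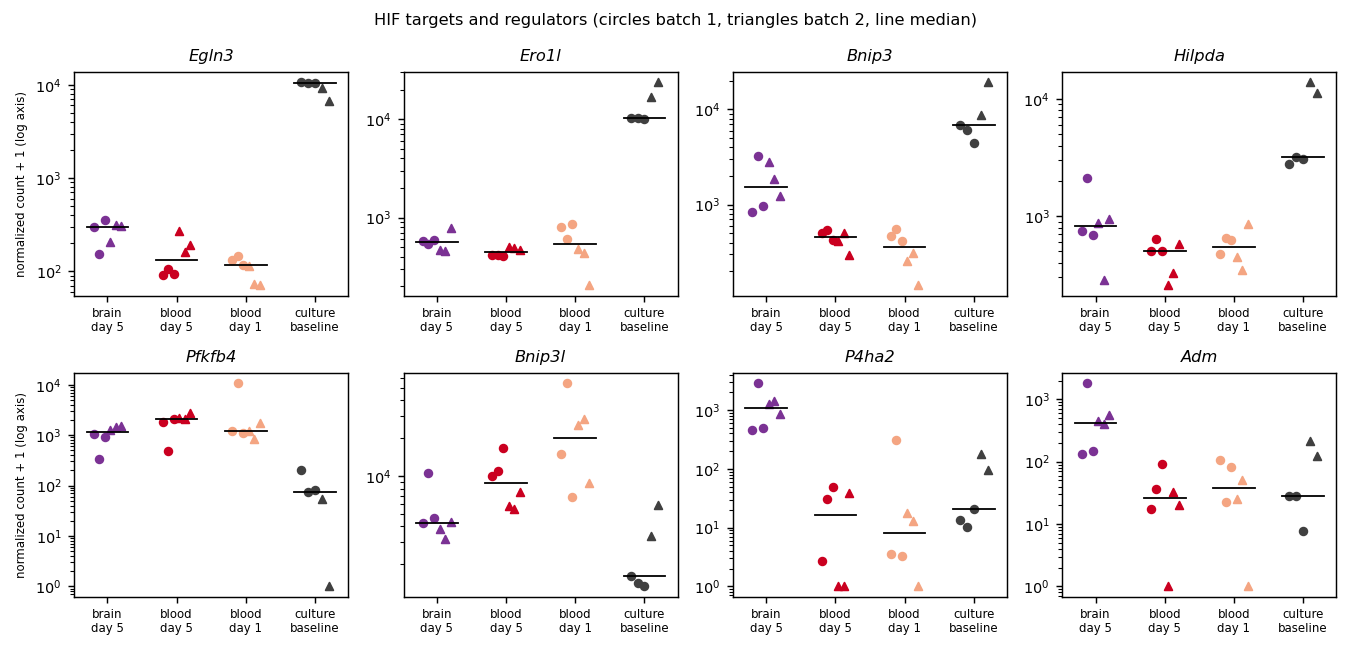
Normalised count + 1 (log axis) of 8 HIF target genes in each library of brain day 5, blood day 5, blood day 1 and the baseline; circles are batch 1, triangles batch 2 and lines the group medians. Egln3, Ero1l, Bnip3 and Hilpda are highest in the baseline, Pfkfb4 and Bnip3l lowest there, and P4ha2 and Adm highest in brain.

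Hilpda, a lipid droplet protein that holds back lipolysis, had 285 to 2113 (median 817) in brain day 5, 255 to 639 (median 502) in blood day 5 and 348 to 859 (median 547) in blood day 1, against 2771, 3226, 3106, 13955 and 11201 in the baseline. The baseline libraries of batch 2 were several times above those of batch 1, and both were above all transferred libraries. Hilpda fell, with log2 differences of -3.30 ± 0.47, -3.59 ± 0.47 and -2.74 ± 0.47 in blood day 1, blood day 5 and brain day 5 (limma adjusted p = 8.19e-06, 2.53e-06 and 2.98e-05).

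Ankrd37, an ankyrin repeat protein used as a HIF reporter gene, had 43 to 199 (median 80.9) in brain day 5, 79.8 to 518 (median 207) in blood day 5 and 141 to 233 (median 203) in blood day 1, against 1314, 1295, 1225, 1923 and 4442 in the baseline. All transferred libraries were below the baseline, and brain overlapped blood day 5. Ankrd37 fell, with log2 differences of -3.23 ± 0.50, -3.13 ± 0.50 and -4.42 ± 0.50 in blood day 1, blood day 5 and brain day 5 (limma adjusted p = 2.6e-05, 3.56e-05 and 9.84e-08). The further fall of brain below blood day 5, -1.29 ± 0.48 (limma adjusted p = 0.0302), was lost without replicate 1 or 3 of either group, brain replicate 6 or blood day 5 replicate 2 (adjusted p 0.0509 to 0.0961). Its exons overlap Lrp2bp and Ufsp2.

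Adm, the vasodilator peptide adrenomedullin, had 131 to 1825 (median 422) in brain day 5, 0 to 91.6 (median 25.3) in blood day 5 and 0 to 105 (median 36.9) in blood day 1, against 27.1, 27.4, 6.6, 218 and 123 in the baseline. Brain was above every blood library and overlapped the baseline through its replicate 4. The rise in brain was 4.42 ± 1.15 against blood day 5 and 3.20 ± 1.21 against the baseline (limma adjusted p = 0.0027 and 0.0323), and the second was lost in edgeR (2.42 (adjusted p = 0.119)) and without baseline replicate 1, 2 or 3 or brain replicate 2, 4, 5 or 6 (limma adjusted p 0.0517 to 0.105).

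Car9, the membrane carbonic anhydrase that handles acid outside the cell, had 381 to 671 (median 484) in brain day 5, 10.4 to 89.3 (median 31.4) in blood day 5 and 0 to 75.1 (median 29.9) in blood day 1, against 105, 84, 109, 633 and 1109.5 in the baseline. Brain was above all blood libraries, and the baseline ran from below brain in batch 1 to above it in 1 library of batch 2. Car9 rose in brain day 5 against blood day 5 by 3.87 ± 1.02 (limma adjusted p = 0.00303), while its difference from the baseline was 2.57 within batch 1 and -0.92 within batch 2. Car9 fell in blood day 1 (-4.17 ± 1.08, limma adjusted p = 0.00463), where replicates 2 and 6 had no read; without the libraries that stood apart it was -1.69 (adjusted p = 0.0555).

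Ndrg1, a stress-induced gene under HIF control, had 3995 to 21122 (median 9704) in brain day 5, 2058 to 5779 (median 2775) in blood day 5 and 1528 to 29406 (median 3297) in blood day 1, against 1067, 959, 1033, 5143 and 1535 in the baseline. Of the baseline only replicate 4 reached the brain range, as did replicate 3 of blood day 5, and replicate 2 of blood day 1 exceeded it. Ndrg1 rose in brain day 5 by 2.69 ± 0.60 against the baseline and 1.78 ± 0.57 against blood day 5 (limma adjusted p = 0.000577 and 0.0125), and edgeR gave 1.43 (adjusted p = 0.0756) for the second. Ndrg1 is also abundant in oligodendrocytes, whose 6 markers were all called higher in brain; their part in the result was not tested. Mxi1, a repressor that competes with MYC for MAX, rose in blood day 1 by 1.89 ± 0.53 (limma adjusted p = 0.00809); without replicate 2, at 31143, it was 1.20 (adjusted p = 0.0025). Kdm3a, a histone H3 lysine 9 demethylase, fell in blood day 1 (-1.14 ± 0.40, limma adjusted p = 0.0317), a call lost with equal totals (-1.04 (adjusted p = 0.112)), in edgeR (adjusted p = 0.0524) and without blood day 1 replicate 2, 4 or 6 or baseline replicate 1, 3 or 5.

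**Figure D4:**
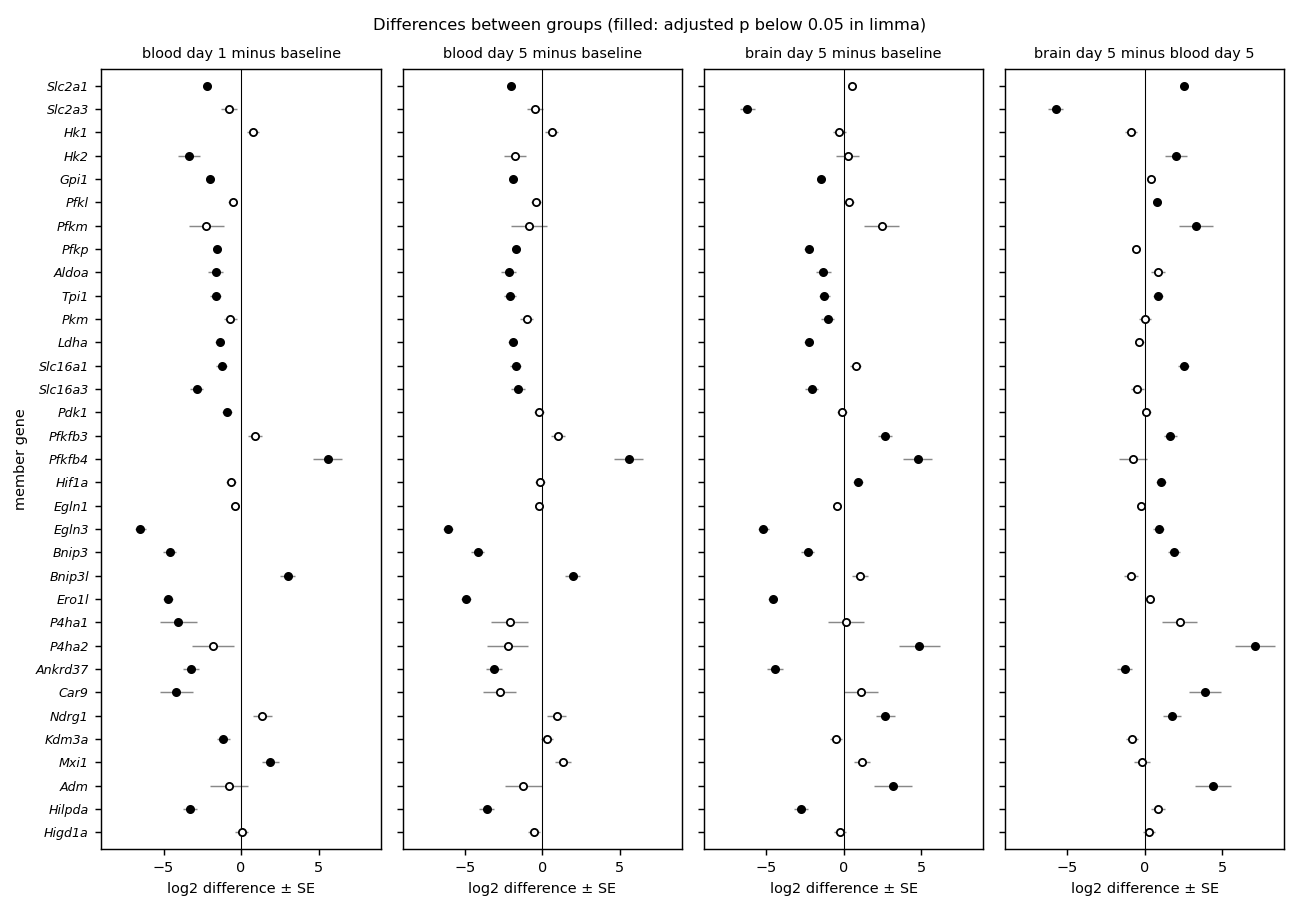
Log2 differences with standard errors of the 33 genes, from left to right blood day 1 minus baseline, blood day 5 minus baseline, brain day 5 minus baseline and brain day 5 minus blood day 5; filled points have a limma adjusted p below 0.05. Filled points lie mostly left of 0 in the first 2 panels (18 lower, 3 higher and 13 lower, 2 higher), on both sides in the third (13 and 6) and mostly right of 0 in the last (14 higher, 2 lower).

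Between blood day 5 and blood day 1 the smallest p-values were those of Kdm3a, 1.44 ± 0.38, and Slc16a3, 1.29 ± 0.42 (limma adjusted p = 0.238 and 0.451). Both passed when libraries were weighted by quality, at 1.01 (adjusted p = 0.0331) and 1.05 (adjusted p = 0.0473). The falls of Egln3, Ero1l, Bnip3, Hilpda and Ankrd37 were thus already present on day 1, and the differences between the days for these 5 genes ran from -0.29 to 0.42.

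Per kilobase of exon, the balance between isoforms also differed, which is given as a description with no test. Slc2a3 made up a median of 0.668% (0.405% to 1.04%) of the Slc2a1 and Slc2a3 sum in brain day 5, 66.1% (56.7% to 79%) in blood day 5 and 58.7% (47.7% to 92.4%) in blood day 1, against 32.5% (28.6% to 65.3%) in the baseline, with the range in parentheses. The baseline split by batch, with 28.6% to 32.5% in batch 1 and 51% to 65.3% in batch 2. Within batch 2 it overlapped blood day 1 (47.7% to 64.1%) and blood day 5 (56.7% to 79%). Egln3 made up 24.3% (18.9% to 32.3%) of Egln1 and Egln3 in brain day 5, 11.7% (9.78% to 18.1%) in blood day 5 and 12.5% (6.01% to 16.4%) in blood day 1, against 89.9% (83.1% to 93.5%) in the baseline. Bnip3 made up 33.5% (25.2% to 55.6%) of Bnip3 and Bnip3l in brain day 5, 7.69% (4.11% to 13.4%) in blood day 5 and 2.22% (1.67% to 9.19%) in blood day 1, against 84.9% (81.5% to 87.9%) in the baseline. Of the last 2 pairs the baseline thus held mostly Egln3 and Bnip3. Blood, and brain by its medians, held mostly Egln1 and Bnip3l.

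Pfkfb4 was 42.8% (36.1% to 61%) of the Pfkfb3 and Pfkfb4 sum in brain day 5, 82.8% (75.7% to 86.3%) in blood day 5 and 84.1% (67.1% to 94%) in blood day 1, against 24.9% (0% to 45%) in the baseline. Pfkp was 19.4% (14.3% to 32.2%) of the phosphofructokinase sum in brain day 5, 51.9% (44% to 55.3%) in blood day 5 and 52.3% (48.7% to 68.2%) in blood day 1, against 72.8% (61.8% to 76.1%) in the baseline. Ldhb, the heart-type subunit and no member of the list, was 74.9% (67.1% to 85.5%) of Ldha and Ldhb in brain day 5, 5.04% (3.82% to 6.06%) in blood day 5 and 4.72% (1.64% to 6.02%) in blood day 1, against 0.0604% (0.04% to 0.171%) in the baseline. Per kilobase, the heart type thus made up most of the sum in every brain library.

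**Figure D5:**
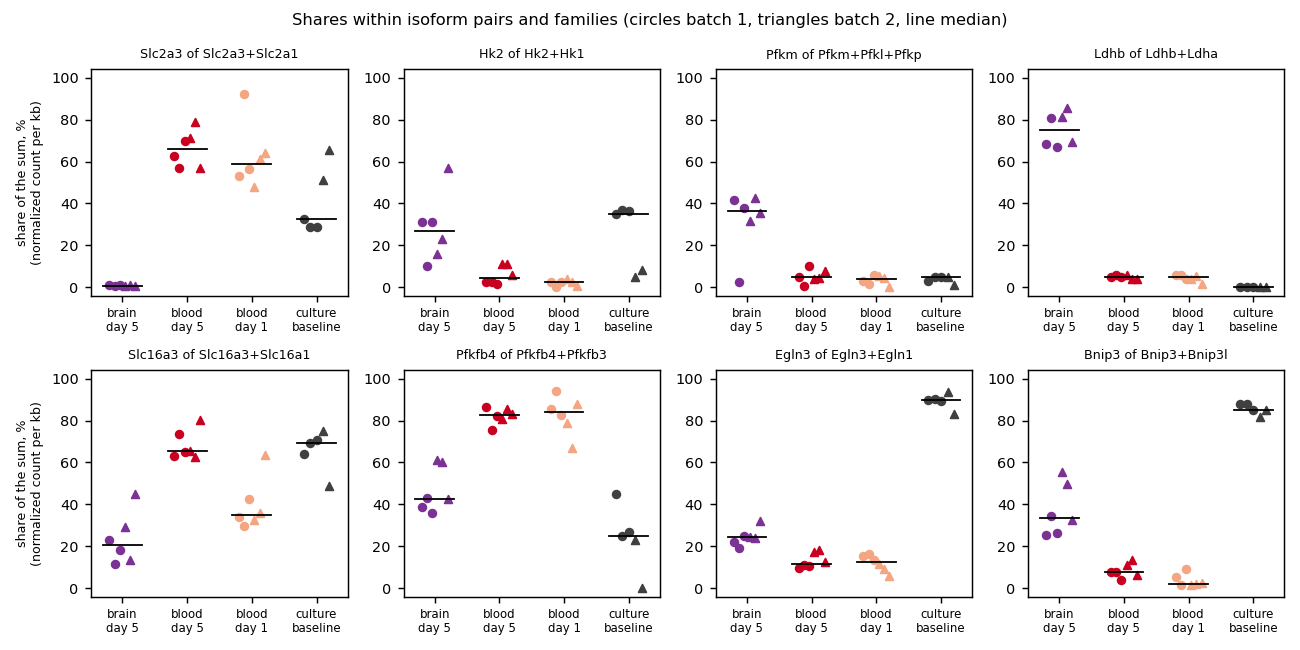
Share of 1 isoform in the sum of its pair or family (normalised count per kilobase, in percent) in each library of brain day 5, blood day 5, blood day 1 and the baseline; circles are batch 1, triangles batch 2 and lines the group medians. Brain libraries have almost no Slc2a3 share (median 0.668%) and a high Ldhb share (median 74.9%), and the baseline has the highest shares of Egln3 and Bnip3.

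Other genes of the same pathways were taken as lists. Of 37 other glycolysis and carbohydrate genes tested, 4 fell and 11 rose in blood day 1, 2 fell and 10 rose in blood day 5, and none fell and 19 rose in brain day 5 against the baseline (limma). The shares called higher were 29.7%, 27% and 51.4%, against 18.1%, 19.6% and 37.5% of all tested genes, and the shares called lower were 10.8%, 5.41% and 0%, against 14.0%, 11.4% and 11.7%. Hk3, the hexokinase of myeloid cells, rose most, by 6.89 ± 0.74 in blood day 1 and 7.50 ± 0.74 in blood day 5 on the log2 scale (limma adjusted p = 1.66e-07 and 4.31e-08); its means were 1369 and 2232 against 20.0 in the baseline. Neutrophil markers were at 0.0621% to 0.552% in blood day 1 and 0.237% to 2.84% in blood day 5 against 0.00406% to 0.0262% in the baseline, and their part in the result was not tested. Bpgm, the red cell enzyme that makes 2,3-bisphosphoglycerate, differed by -1.96 ± 0.64 between brain day 5 and blood day 5 on the log2 scale (limma adjusted p = 0.0134). Slc2a5 is a fructose carrier known as a microglial marker. Its mean in brain day 5 was 5699, at least 1885-fold higher than in blood day 5, where no library had a read (floor of 3 reads per library). The brain libraries ran from 618 to 15250 (median 4204). Microglial markers were at 0.379% to 0.894% in brain day 5 and 0.0408% to 0.0552% in blood day 5, and their part in the result was not tested.

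Of 42 other hypoxia genes tested, 13 fell and 8 rose in blood day 1, 14 fell and 10 rose in blood day 5, and 8 fell and 18 rose in brain day 5 against the baseline (limma). The shares called lower were 31%, 33.3% and 19%, against 14.0%, 11.4% and 11.7% of all tested genes, and the shares called higher, 19%, 23.8% and 42.9%, were near the 18.1%, 19.6% and 37.5% of all tested genes. Tmem45a, a membrane protein induced by hypoxia, had no read in blood day 1, where it was at least 422-fold lower, against a mean of 1568 in the baseline. The baseline libraries ran from 738 to 3925 (median 796). Nt5e, the ecto-enzyme CD73 that makes adenosine, rose by 5.67 ± 1.23 in blood day 1 and 7.36 ± 1.23 in blood day 5 (limma adjusted p = 0.00106 and 5.89e-05). Arnt2, a partner of HIF alpha subunits, fell, with log2 differences of -8.00 ± 1.08 in blood day 1 and -7.51 ± 1.08 in blood day 5 (limma adjusted p = 4.46e-06 and 9.69e-06). Bhlhe40, a HIF-induced repressor, fell by 3.43 ± 0.24 on the log2 scale in brain day 5 (limma adjusted p = 3.36e-11), with a mean of 1914 against 19845 in the baseline. Lox, the collagen cross-linking enzyme, and Ppp1r3c, a glycogen targeting subunit, averaged 9555 and 2252 in brain day 5. These means were at least 2377-fold and 560.4-fold higher than in the baseline, where no library had a read. The brain libraries ran from 1980 to 24284 (median 2667) for Lox and from 1068 to 3500 (median 2300) for Ppp1r3c. Adora2a, an adenosine receptor, differed by -4.23 ± 0.48 between brain day 5 and blood day 5 on the log2 scale (limma adjusted p = 1.11e-07). Of 7 pentose phosphate genes, Taldo1, G6pdx and Pgd rose in all 3 transferred groups and Rpia and Pgls fell, Rpia at -2.88 ± 0.88 in brain day 5, and Tkt fell in blood day 5. The share higher was 42.9% in each, against 18.1%, 19.6% and 37.5% of all tested genes. The shares lower were 28.6%, 42.9% and 28.6%, against 14.0%, 11.4% and 11.7%. Taldo1 and G6pdx were lower in brain day 5 than in blood day 5 (28.6%, against 14.3% of all tested genes), and none was higher.

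Calls that held under every alternative numbered 10 of 21 in blood day 1, 11 of 15 in blood day 5 and 12 of 19 in brain day 5 against the baseline, and 5 of 16 in brain day 5 against blood day 5. Gpi1, Ero1l, Egln3, Pfkfb4, Bnip3, Hilpda and Ankrd37 were among them in all 3 comparisons with the baseline. In brain day 5 against blood day 5 they were Slc2a3, Slc2a1, Slc16a1, Bnip3 and P4ha2.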

How the data were processed

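Poly-A RNA of 23 libraries was sequenced as 150 bp pairs, per the labels' protocols. The submitters' processing notes name fastp, HISAT2 2.0.5 and the mm10 build. No source used here gives the counting tool, gene annotation or strand setting. The deposited table holds signal values, which the authors name normalized counts, of 19945 genes; they are gene counts divided by 1 factor per library. Whole reads were recovered from them: 100% of values were whole within 0.1 read. Depth was 11.6 M to 58.1 M reads per library.

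Tests covered the 15268 genes that reached 10 in 5 or more libraries. Log2(value + 1) was fitted in limma 3.58.1 (R 4.3.3) with robust, trended eBayes. All 23 libraries entered 1 model with group and batch; tests were two-sided with Benjamini-Hochberg adjustment over all genes and a threshold of 0.05. The added 1 shrinks log2 differences between low values. A library without a read can instead widen them, as seen for Pfkfb4 and P4ha1. edgeR 4.0.16 on the recovered reads (quasi-likelihood, TMM), dropping the libraries that stood apart and averaging the closest libraries were alternatives chosen after seeing the data. The model was also run on simulated counts with known changes. Those counts had the same spread for every gene, no batch effect, no outlying libraries and changes in brain day 5 only. They therefore do not show how the model performs on these libraries. Values in every library are given for the 3 largest rises and falls per comparison that had the same sign in both batches, for preset isoform pairs and for Hif1a, Ldha, Pkm, Ero1l and Car9; among other pathway genes, the 2 largest rises and falls are named, and the rest were named after their values were seen. Coordinates and exon lengths come from GENCODE M21 (GRCm38). The members and lists were chosen with earlier results of these data known. Counting error alone is covered by the floor of 3 reads.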

Additional observations from a re-analysis of the deposited data

Results flagged for a closer look

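Of 132 sets of 1 gene in 1 group, 26 held a library whose gap to the others exceeded the 95% critical value of Dixon's test, where chance gives about 1 in 20. Values are normalised counts, and none of these gaps was tested for a cause.

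In brain day 5, replicate 2 was far from the others for Pfkm (167, others from 1691), Pfkfb4 (332) and Bnip3l (10603, others up to 4674). In blood day 5, replicate 6 was high for Gpi1 (8721) and Pdk1 (1863), replicate 5 low for Pfkl (2406), replicate 2 low for Pfkfb4 (491), and replicate 4 high for Hif1a (2359.5) with no read for Adm (0).

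In blood day 1, replicate 2 was high for Hk1 (22496), Tpi1 (25403), Pfkfb4 (10789.7), Ndrg1 (29406) and Mxi1 (31143, others 2052 to 2506). That library also had the highest platelet marker share of its group, 4.90%. Replicate 6 was low for Pdk1 (311) and had no read for Pfkm (0) and Adm (0).

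In the baseline, replicate 4 was high for Hk1 (4193), Gpi1 (38708) and Ndrg1 (5143) and low for Hif1a (795) and Egln1 (865). Replicate 5 was high for Pdk1 (2134) and Higd1a (6885), low for Pfkfb3 (106) and at 0 for Pfkfb4. Both are libraries of batch 2, which held 2 of the 5 baseline libraries.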

How the results depend on the processing

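The 36 alternatives comprised 23 that left out 1 library each. Of the gene values under them, 5665 kept their side of the threshold, 139 were no longer called and 135 became called. Values called in neither analysis count among the 5665 even where their sign turned. For 1 value the sign turned with a call in either analysis. Adm in blood day 1 against the baseline was 2.14 (limma adjusted p = 0.0139) with library quality weights and -0.77, not called, in the main analysis. Counts of called members that moved by over 1.5 times were as follows. Blood day 1 higher genes were 5 with equal totals, 6 with quality weights and 5 in edgeR, against 3. Blood day 5 higher genes were 5 with equal totals, 5 with quality weights and 1 with the closest libraries averaged, against 2. Brain day 5 against the baseline gave 12 higher genes with quality weights, 3 in edgeR and 10 without the libraries that stood apart, against 6. Brain day 5 against blood day 5 gave 9 higher genes with equal totals, in batch 1 alone, in batch 2 alone and in edgeR, against 14. Its lower genes were 7 with equal totals, 6 with quality weights, 1 in batch 2 alone, 7 in edgeR, 5 without the libraries that stood apart and 1 with the closest libraries averaged, against 2. Blood day 5 against blood day 1 gave 2 higher genes with quality weights, against 0. The cause was not tested.

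With 1 library left out, higher and lower counts ran from 3 to 4 and 16 to 19 in blood day 1, 2 to 3 and 13 to 15 in blood day 5, 4 to 8 and 11 to 13 in brain day 5 against the baseline, 11 to 15 and 1 to 3 in brain day 5 against blood day 5, and stayed at 0 between the blood days. The count of lower genes in brain day 5 against blood day 5 was 1 without brain replicate 1, 3 or 6 or blood day 5 replicate 1 or 3. Baseline replicates 1 to 3 differed from each other far less (chi-square per degree of freedom 4.19 to 12.5), as did brain replicates 1 and 3 (10.1), than other pairs within a group (45.0 to 1300.2), so their spread may be too small as a measure of biological error.

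The replicate numbers were not shown to pair the libraries: same-numbered libraries of different groups had correlations of their deviations from -0.34 to 0.27 (median -0.13), and differently numbered ones in the same batch from -0.34 to 0.18 (median -0.09). With the replicate number as a block, higher and lower counts were 3 and 18 in blood day 1, 2 and 13 in blood day 5, 7 and 13 in brain day 5 against the baseline, 14 and 3 against blood day 5, and 0 and 0 between the blood days. P4ha1, P4ha2, Adm, Car9 and Pfkm had few or no reads in some libraries and standard errors above 1 log2 unit. The part of depth in this was not tested.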
